A study of Taeniopygia guttata with 8 samples.

Results

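H3K27ac was measured by ChIP-seq on chromosome Z, the avian sex chromosome that males carry as a pair, in 2 song nuclei of adult male zebra finches. The 1240 Z regions were taken by position alone, as every row that the authors' deposited count table places on Z, and they made up 3.45% of its 35958 regions. A further 66 regions on sequence assigned to Z without a position (Z_random) were not included. All 1240 passed the filter on low counts. Area X, a song nucleus in the striatum, was compared with the robust nucleus of the arcopallium (RA), and birds that had sung were compared with silent ones. The groups are Area X singing (4 libraries), Area X silent (3), RA singing (4) and RA silent (3). Columns named plus were read as singing and those named minus as silent, and the direction of each singing comparison rests on that reading. The names do not state the assay, and the columns were taken as H3K27ac libraries. Per the labels' protocols, brains were taken from isolated males after 1 to 2 h of singing or silence, and the singing samples are labelled as 2 h. Nuclei were pooled from 6 birds, and 18 birds per behaviour gave 3 pools. The sources used here do not say how a 4th singing library arose, so p-values measure the spread between libraries, which may be partly technical. The source field of the labels speaks of laser capture, the protocol of dissection. Antibody of 2 lots was used, and which library had which is not stated. No genotype or transgene is named in the labels.

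H3K27ac, acetylation of lysine 27 on histone H3, is deposited by the acetyltransferases CBP and p300 and marks active enhancers and promoters. In birds, males carry a pair of Z chromosomes and females a Z and a W, and compensation of the Z dose is incomplete and acts gene by gene. All the birds here were male, so these data hold no comparison of Z dose, and Z was set against other regions of the same libraries. Shares of calls were set against all regions, which include Z itself and unplaced sequence. Levels were set against the other placed chromosomes. No source used here gives the genome build. Regions therefore go by position, with starts counted from 1, and without genes or sequences. The identity of the dissected nuclei was therefore not checked against marker genes.

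Reads in regions, which are not the sequencing depth, ranged from 0.203 to 10.6 M (1e6 reads) per library. Across the Z regions, RA silent library 2 ranked regions more like the Area X libraries than like the other RA libraries (median Spearman coefficients 0.906 and 0.825), and Area X silent library 1 was the one it resembled most (0.955). RA singing library 4, the shallowest, was likewise closer to Area X (0.807) than to RA (0.705), and 172 Z regions (13.9%) had no read in it. These 2 libraries were kept under their labels, and folds or calls that moved by over 1.5 times without them are given both ways. The whole-cell extract samples of the series were not analysed here.

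Acetylated regions were sparse on Z, as on other long chromosomes. Chromosome Z held 17.0 regions per Mb, and regions covered 2.01% of the stretch from the first to the last. Both values were the lowest of 32 placed chromosomes with at least 50 regions, the next being chromosome 2 with 19.1 regions per Mb and 2.12%. The regions that were present were not weak. Their median level, in CPM (reads per 1e6 reads, scaled by TMM) averaged over the 14 libraries, was 17.7 on Z and 14.5 on the other placed chromosomes. Per kb of region the median was 19.5 CPM on Z and 17.3 CPM elsewhere, which put Z second among the 32. Median width was 828.5 bp on Z and 792 bp elsewhere, whereas regions over 4000 bp were fewer, at 36 of 1240 on Z (2.90%) against 4.60% elsewhere. These ranks are descriptions of the deposited list, and no source used here gives its calling criteria.

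Regions were unevenly spread along the chromosome. The longest stretch without one ran from 17757741 to 19334175 (1.58 Mb), followed by 8261609 to 9302108 (1.04 Mb) and 27616031 to 28360870 (0.745 Mb). By 10 Mb segments, the count per segment was highest at 0 to 10 Mb, with 228 regions, and at 30 to 40 Mb, with 223. The 30 to 40 Mb segment held the most signal, a summed 7591 CPM, and the end piece from 70 Mb the least, 646 CPM over 44 regions.

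The share of reads on Z was compared first, since it needs no scaling between libraries. Z took 3.59%, 3.55%, 3.47% and 3.22% of the reads in regions in the Area X singing libraries and 3.47%, 3.62% and 3.44% in the Area X silent libraries. In RA it took 3.90%, 3.72%, 3.30% and 3.67% in the singing libraries and 4.01%, 3.79% and 3.87% in the silent libraries. The lowest RA value, in RA singing library 3, lay inside the Area X range, and the other RA libraries lay above it. Shares averaged 3.48% ± 0.13 in Area X and 3.75% ± 0.23 in RA (mean ± SD, n = 7 per nucleus), a difference of -0.27 percentage points. The exact two-sided permutation p was 0.0233, and 0.0932 after adjustment over 4 comparisons, so the difference did not pass. Without RA singing library 3 the difference was -0.346 percentage points. That library was the only RA one inside the Area X range, so its removal separated the nuclei by construction and adds no support. Without regions over 4000 bp the difference was -0.189 (exact permutation p = 0.164). Counting error was smaller than this spread. The widest 95% Wilson interval, in RA singing library 4, ran from 3.59% to 3.75%.

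**Figure D1:**
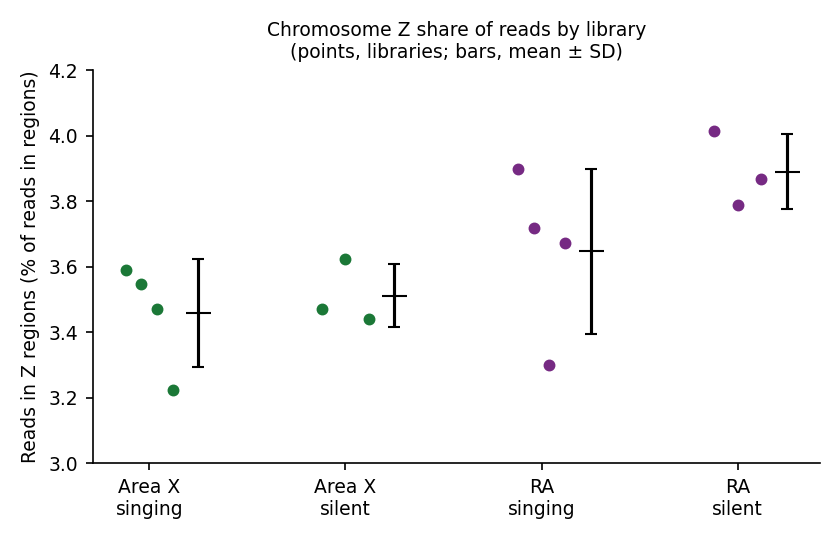
Reads in Z regions as a percentage of all reads in regions (y axis, which starts at 3%), for each library of Area X singing, Area X silent, RA singing and RA silent (points), with the mean ± SD of the group beside them. The Area X libraries lie between 3.22% and 3.62%, and 6 of the 7 RA libraries lie above 3.62%.

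Region by region, Z held differences between the nuclei in both directions. Of the 1240 regions, 330 were higher in Area X (26.6%, against 28.5% of all 35954 regions tested), and 283 were higher in RA (22.8%, against 25.3%), by edgeR's quasi-likelihood test at an adjusted p under 0.05. Together 49.4% of Z regions were called, against 53.7% of all regions, so Z was close to the background in both directions. On the other placed chromosomes 28.2% were called toward Area X and 25.9% toward RA. Z calls toward Area X had a median fold of 2.62, with 267 above 2-fold (21.5% of Z regions, against 21.9% of all regions). Z calls toward RA had a median fold of 2.23, with 195 above 2-fold (15.7%, against 18.5%). Over all regions the median folds were 2.54 toward Area X and 2.31 toward RA. In pooled tissue, a different share of cells of a type and a different signal per cell cannot be told apart. The CPM of the 7 Area X libraries lay wholly above that of the 7 RA libraries in 22 Z regions (1.77%, against 4.38% of all regions). The RA libraries lay wholly above the Area X libraries in 48 (3.87%, against 3.67%). The balance of the directions depended on scaling, on Z as over all regions. Scaling by total counts put the all-region median log2 fold change at -0.35 (TMM, -0.04). Z then gave 219 calls toward Area X and 402 toward RA, against 7045 and 12301 over all regions. Of the calls, 35.3% on Z and 36.4% over all regions were then toward Area X. Under TMM, leaving out RA silent library 1 gave 219 and 248 on Z (7461 and 7811 over all regions). Leaving out both RA silent library 2 and RA singing library 4 gave 358 and 322 (10995 and 10459 over all regions).

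**Figure D2:**
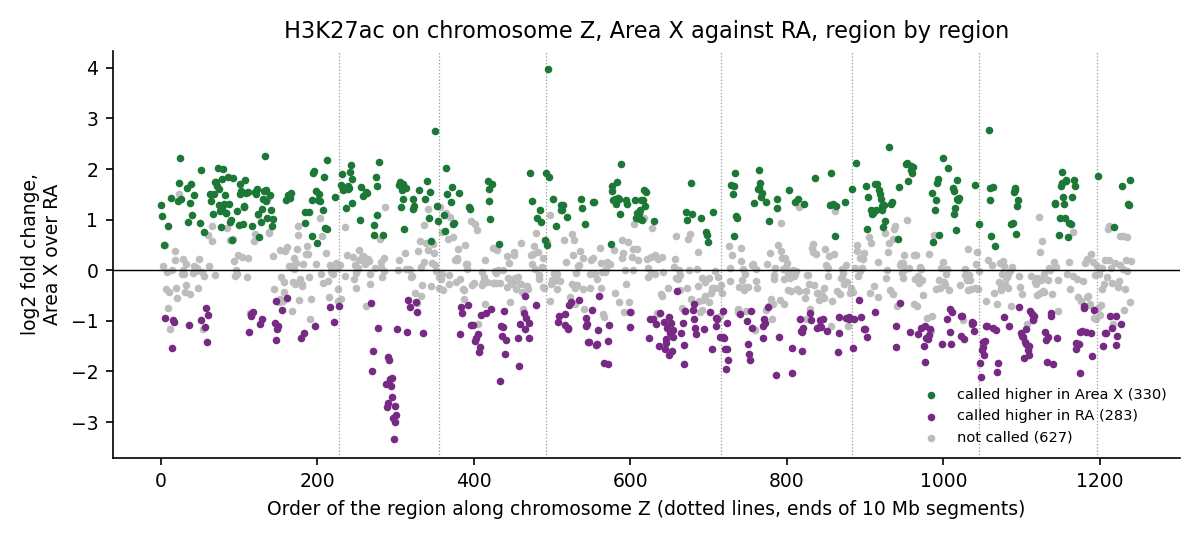
Log2 fold change of Area X over RA (y axis) for each of the 1240 Z regions in order along the chromosome (x axis), coloured by call. Calls of both directions occur along the whole chromosome, the group of low points in the second 10 Mb segment is the run of 15 regions higher in RA, and the highest point is a weak region with few reads.

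The highest point in that plot, chrZ:30933904-30934136, is named because it stands out there and not by the rule for named regions. It had 4.71 ± 3.12 CPM in Area X and 0.959 ± 1.70 CPM in RA (mean ± SD, n = 7 per nucleus), from 191 reads over the Area X libraries and 12 reads over the RA libraries, 4 of which had none. Its fitted log2 fold change of 3.97 (edgeR adjusted p = 0.00478) rests on those few reads.

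The largest differences toward RA lay in a cluster, chrZ:14098145-14151673, which spans 53529 bp. It is a run of 15 consecutive regions all called higher in RA, where a run is at least 5 neighbours called one way with gaps of at most 10000 bp. Its summed level was 206, 209, 164 and 139 CPM in the Area X singing libraries and 206, 95.7 and 111 CPM in the Area X silent libraries. In RA it was 825, 680.4, 885 and 622 CPM in the singing libraries and 802, 551 and 1402 CPM in the silent libraries. The nuclei did not overlap, and the lowest RA value belonged to RA silent library 2. Means were 162 ± 47.6 CPM in Area X and 824 ± 281 CPM in RA (mean ± SD, n = 7 per nucleus). The median fold of the 15 regions toward RA was 5.70, and 11 of the 15 did not overlap between the nuclei one by one.

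The cluster stood alone on the chromosome. The nearest region before it lay 525832 bp away and the nearest after it 252320 bp away. The region before, chrZ:13572106-13572312, had 3.73 ± 1.81 CPM in Area X and 1.81 ± 1.44 CPM in RA (adjusted p = 0.0613 in edgeR). The region after, chrZ:14403994-14405724, had 45.6 ± 7.40 CPM in Area X and 46.6 ± 12.1 CPM in RA (mean ± SD, n = 7 per nucleus; adjusted p = 0.988 in edgeR). Neither neighbour was called, but at those distances they cannot show where the difference between the nuclei ended. In each of the 22 alternatives that kept its 15 regions all 15 were called higher in RA, and with a filter at the median CPM all 10 that remained were. The run had been picked by its calls in these same data, so this adds no separate support.

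**Figure D3:**
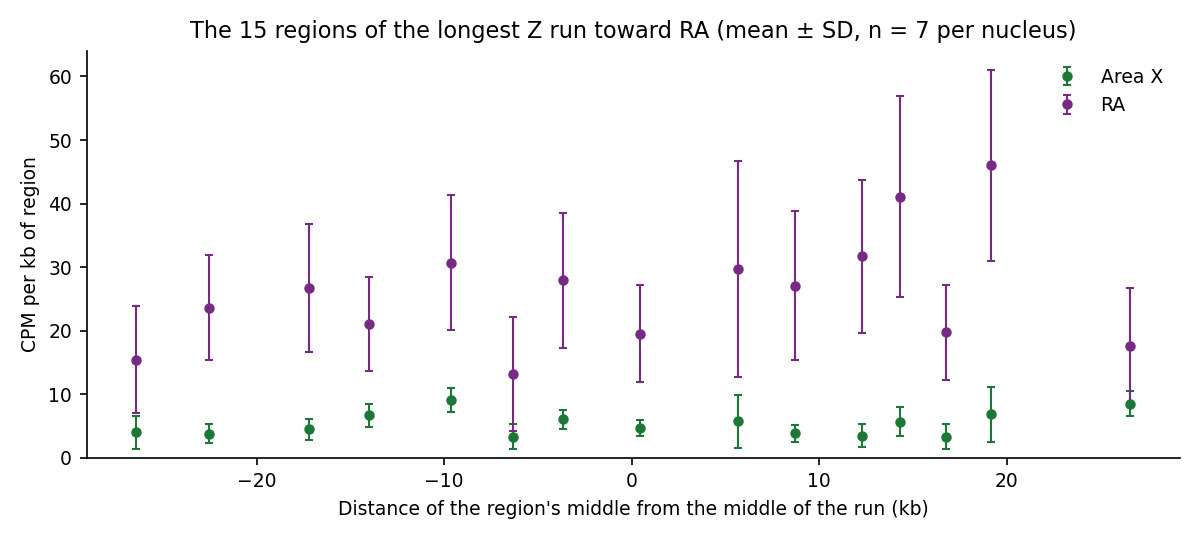
Level of the 15 regions of the longest Z run toward RA in CPM per kb of region (y axis), against the distance of each region's middle from the middle of the run in kb (x axis). Points are means and bars SD over 7 libraries of Area X and of RA, and the RA mean is above the Area X mean in all 15.

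Within the cluster, the 5 adjoining regions from chrZ:14131699-14135561 to chrZ:14143757-14144416 included the 4 largest folds. At chrZ:14136487-14137869, CPM was 1.55 at the lowest, 4.36 at the median and 9.48 at the highest of the Area X libraries, and 28.9, 40.8 and 78.8 in RA. The difference was 10.1-fold toward RA (edgeR log2 fold change -3.34 with SE 0.32, adjusted p = 5.27e-05). At chrZ:14138589-14139785 the means were 6.80 ± 2.73 CPM in Area X and 49.2 ± 19.0 CPM in RA (mean ± SD, n = 7 per nucleus), 7.97-fold. These 2 neighbours had the largest folds toward RA on Z among named regions. At chrZ:14131699-14135561, CPM averaged 14.9 ± 5.18 in Area X and 105 ± 45.2 in RA, 7.55-fold. Outside that stretch, the highest RA level was at chrZ:14099524-14105208, which is 5685 bp wide, with 21.7 ± 8.78 CPM in Area X and 134 ± 46.8 CPM in RA, 6.51-fold. The smallest difference was at the right end of the cluster, chrZ:14151291-14151673, with 3.26 ± 0.75 CPM in Area X and 6.74 ± 3.50 CPM in RA (log2 fold change -1.16, edgeR adjusted p = 0.0113).

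Of the 10 largest folds toward RA among non-overlapping regions at or above the median CPM, 9 lay in that cluster. The exception, chrZ:60281621-60282240, had 3.70 at the lowest, 5.07 at the median and 10.8 CPM at the highest in Area X, and 12.4, 27.4 and 30.9 CPM in RA. The difference was 4.29-fold toward RA (edgeR log2 fold change -2.10 with SE 0.30, adjusted p = 0.000646). The lowest RA values there came from RA silent library 2 (12.4 CPM) and RA singing library 4 (13.0 CPM, from 3 reads), and the other RA libraries lay between 27.2 and 30.9 CPM.

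There were 3 further runs toward RA, of 5 regions each. At chrZ:38999392-39036204, summed CPM averaged 214 ± 45.5 in Area X and 440 ± 131 in RA (mean ± SD, n = 7 per nucleus). It holds the widest region of Z and is flanked by called regions higher in RA on both sides. At chrZ:4688561-4701906, the sums were 110 ± 20.4 CPM in Area X and 191 ± 62.2 CPM in RA. At chrZ:46380057-46393752, they were 33.3 ± 3.66 CPM in Area X and 66.8 ± 16.6 CPM in RA. The calls in this last run were the least stable of the 4, with 1 of 5 called under signal-dependent (loess) scaling, 1 without RA silent library 3 or RA singing library 3, and 2 without Area X silent library 2.

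Toward Area X, the longest run was chrZ:10266863-10313004, with 7 regions. Its summed level was 340.3, 524, 1161 and 890.2 CPM in the Area X singing libraries and 399, 885 and 925 CPM in the Area X silent libraries. In RA it was 119.6, 271, 212 and 478 CPM in the singing libraries and 105, 462 and 141 CPM in the silent libraries. RA silent library 2 and RA singing library 4 lay inside the Area X range, and the other RA libraries lay below it. Means were 732 ± 310 CPM in Area X and 256 ± 157 CPM in RA (mean ± SD, n = 7 per nucleus), and without those 2 libraries the RA mean was 170 ± 70.2 CPM. The median fold of the 7 regions toward Area X was 3.17, and 4.92 without those 2 libraries. The regions on either side, 3849 bp before and 4173 bp after, were not called (adjusted p = 0.372 and 0.362 in edgeR).

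The other runs toward Area X were chrZ:40540656-40565088, with 6 regions, and chrZ:37986953-38014744, with 5. At the first, summed CPM was 286 at the lowest, 426 at the median and 765 at the highest in Area X, and 168, 176 and 299.9 CPM in RA. The highest RA value, from RA singing library 4, was the only one above the lowest Area X value. The means were 468 ± 162 CPM in Area X and 210 ± 52.5 CPM in RA (mean ± SD, n = 7 per nucleus). At the second, they were 302 ± 119 CPM in Area X and 137 ± 64.8 CPM in RA, and fewer of its 5 regions were called under some alternatives. The number was 2 under total-count scaling, 1 without RA silent library 1, 2 without RA silent library 3, and 3 without RA singing library 1 or Area X silent library 3.

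On Z, regions without overlap toward Area X were fewer than toward RA (22 and 48), whereas over all regions they were more (1575 and 1319). None of the 22 lay within those runs. Of 17 that were at or above the median CPM, the largest fold was at chrZ:42449994-42452936. CPM there was 149 at the lowest, 248 at the median and 331 at the highest in Area X, and 17.4, 56.7 and 122 CPM in RA. The difference was 3.92-fold toward Area X (edgeR log2 fold change 1.97 with SE 0.43, adjusted p = 0.00227). It was 6.51-fold without RA silent library 2, and 7.23-fold without that library and RA singing library 4. A pair of adjoining regions, 36708 bp to its left, was also among the 10 largest. At chrZ:42408183-42411257, CPM averaged 193 ± 26.3 in Area X and 66.3 ± 31.9 in RA (mean ± SD, n = 7 per nucleus), 3.05-fold. At chrZ:42411924-42413285, the averages were 122 ± 21.5 CPM in Area X and 41.9 ± 21.5 CPM in RA, 3.07-fold. In all 3 regions the highest RA values came from RA silent library 2 and RA singing library 4.

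Among these 17 regions, the second largest fold was at chrZ:7195758-7196526, a region of 769 bp. It had 45.3 ± 11.4 CPM in Area X and 12.8 ± 7.66 CPM in RA (mean ± SD, n = 7 per nucleus), 3.79-fold (edgeR log2 fold change 1.92 with SE 0.35, adjusted p = 0.00109). Another pair lay near the right end of the chromosome. At chrZ:72489323-72490300, CPM averaged 37.1 ± 10.1 in Area X and 10.8 ± 8.25 in RA, 3.43-fold. Without RA silent library 2, which had 27.6 CPM there, the difference was 6.27-fold, and without RA singing library 4 as well it was 6.22-fold. At chrZ:72473935-72476275, the averages were 122 ± 33.7 CPM in Area X and 50.9 ± 19.0 CPM in RA, 2.49-fold. One more, chrZ:38036758-38037309, was the next region after the run at chrZ:37986953-38014744, 22013 bp beyond it, with 28.4 ± 4.65 CPM in Area X and 10.3 ± 4.83 CPM in RA (edgeR adjusted p = 0.00121). That and the remaining 3 of the 10, at chrZ:55631235-55635241, chrZ:24058324-24059077 and chrZ:67589806-67592380, differed by 2.47-fold to 2.63-fold. All 20 regions named for their fold, 10 in each direction, were called in each of 23 alternatives. They had been chosen as called, non-overlapping and largest in fold in these same data, which favours that outcome, so it adds no separate support.

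The strongest regions of Z did not share a direction. The highest level was at chrZ:39119404-39130693, 11290 bp wide, where CPM was 358 at the lowest, 474 at the median and 685 at the highest in Area X, and 456, 519 and 652 CPM in RA. The nuclei overlapped, with means of 503 ± 132 CPM in Area X and 532 ± 75.1 CPM in RA (mean ± SD, n = 7 per nucleus), and the log2 fold change was -0.16 (95% interval -0.50 to 0.18, edgeR adjusted p = 0.409). It was called higher in RA in 3 of 23 alternatives, and under signal-dependent scaling its log2 fold change was -1.03 (adjusted p = 0.00142). At 95629 bp to its left lay the widest Z region, chrZ:39011441-39023774, of 12334 bp. It had 155 ± 30.1 CPM in Area X and 309 ± 95.3 CPM in RA, 2.05-fold higher in RA (edgeR log2 fold change -1.04 with SE 0.21, adjusted p = 0.00165), and 3.41-fold under signal-dependent scaling. Near 10.2 Mb, by contrast, 2 of the strongest regions were higher in Area X. At chrZ:10220796-10230204, 9409 bp wide, CPM averaged 321 ± 149 in Area X and 109 ± 66.8 in RA, 2.99-fold (edgeR adjusted p = 0.00541). At chrZ:10266863-10274546, in the longest run toward Area X, the averages were 320 ± 121 CPM in Area X and 109 ± 67.8 CPM in RA (log2 fold change 1.60, edgeR adjusted p = 0.00232). Signal-dependent scaling gave these regions 1.94-fold and 1.96-fold, and without RA silent library 2 and RA singing library 4 the second was 4.65-fold. The last of the 5, chrZ:29818214-29820621, had 293 ± 58.2 CPM in Area X and 195 ± 57.1 CPM in RA (edgeR adjusted p = 0.0234). Its direction was not stable, and under signal-dependent scaling its log2 fold change was -0.11 (adjusted p = 0.659) instead of 0.60. It also lost its call when any 1 of 6 libraries was left out (RA silent 1 or 3, RA singing 2 or 3, Area X silent 2 or Area X singing 1), with adjusted p between 0.0508 and 0.0772.

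Differences between the nuclei were also seen over long stretches of the chromosome. Other chromosomes were not divided in this way, so these differences are not shown to be particular to Z. The share of a library's Z reads in each 10 Mb segment was compared, which depends neither on scaling nor on how much of the library lies on Z. The 8 shares sum to 100% and are therefore not independent. At 0 to 10 Mb, the share was 17.1% at the lowest, 19.6% at the median and 21.1% at the highest in Area X, against a median of 16.2% and a highest of 17.4% in RA. The nuclei overlapped in a narrow band, with 6 of 7 Area X libraries above every RA library. Shares averaged 19.2% ± 1.59 in Area X and 15.7% ± 1.39 in RA (mean ± SD, n = 7 per nucleus; by exact two-sided permutation p = 0.00117, or 0.00699 adjusted over the 8 segments). In the same segment 94 of 228 regions were called toward Area X (41.2%, against 28.5% of all regions) and 29 toward RA (12.7%, against 25.3%). Area X calls outnumbered RA calls there under each alternative (61 and 42 with total-count scaling, against 7045 and 12301 over all regions). Single libraries moved these counts, which were 62 and 23 without RA silent library 1 (7461 and 7811 over all regions). They were 62 and 20 without RA silent library 3 (7686 and 6444), and 68 and 19 without Area X silent library 3 (8128 and 6786). Uneven calls also occurred over whole chromosomes. On chromosome 1, 36.9% of regions were called toward Area X and 17.9% toward RA, and on chromosome 11, 12.9% and 40.3%.

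Toward RA, the 30 to 40 Mb segment had shares of 19.9% ± 0.79 in Area X and 22.1% ± 1.49 in RA (mean ± SD, n = 7 per nucleus; by exact permutation p = 0.00175, or 0.00699 adjusted). The 60 to 70 Mb segment had 8.37% ± 1.08 in Area X and 10.1% ± 1.21 in RA (adjusted p = 0.0338 by the exact permutation test). That difference was lost when any 1 of 8 libraries was left out (RA silent 1 or 3, RA singing 1, Area X silent 2 or 3, or Area X singing 2, 3 or 4), with adjusted p between 0.0501 and 0.0688. At 50 to 60 Mb the order was the opposite, with 17.0% ± 1.23 in Area X and 15.0% ± 0.91 in RA (adjusted p = 0.0124 by the exact permutation test). By 5 Mb segments, that difference lay at 50 to 55 Mb (2.18 percentage points, exact permutation adjusted p = 0.016). At 55 to 60 Mb the order was reversed and did not pass (-0.20, exact permutation adjusted p = 0.484). Toward RA, 60 to 65 Mb passed (-0.90, exact permutation adjusted p = 0.016) and 65 to 70 Mb did not (-0.86, exact permutation adjusted p = 0.069). The other 4 segments did not pass. Within 40 to 50 Mb, however, the 5 Mb segment from 45 Mb passed toward RA (-0.79, exact permutation adjusted p = 0.016). The one from 40 Mb leaned toward Area X and did not pass (0.34, exact permutation adjusted p = 0.069). At 10 to 20 Mb, which holds both the longest run toward RA and the longest run toward Area X, the shares were 12.8% ± 0.57 in Area X and 12.9% ± 0.55 in RA (adjusted p = 0.667 by the exact permutation test). Among regions at 30 to 40 Mb, 22.4% were called toward Area X and 27.4% toward RA (28.5% and 25.3% of all regions). These values were 30.9% and 21.6% at 50 to 60 Mb, and 21.2% and 33.1% at 60 to 70 Mb. In all 3 segments they lay closer to those over all regions than at 0 to 10 Mb.

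**Figure D4:**
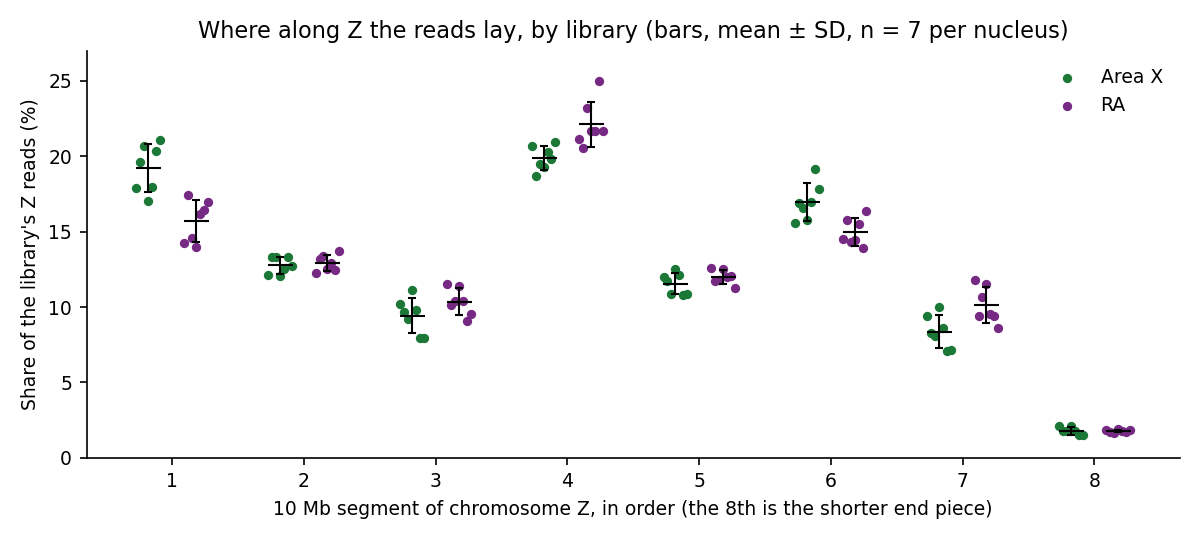
Share of each library's Z reads (y axis, percent) in the successive 10 Mb segments of the chromosome (x axis, numbered from its start), for 7 Area X and 7 RA libraries (points) with mean ± SD. Area X is higher in the first segment (19.2% against 15.7%) and the sixth (17.0% against 15.0%), and lower in the fourth (19.9% against 22.1%) and the seventh (8.37% against 10.1%).

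Wide and narrow regions differed in their direction on Z as they did over all regions. Among Z regions wider than 4000 bp, 24 of 36 were called toward Area X and 6 toward RA (66.7% and 16.7%, against 62.2% and 20.4% of all regions of that width). Among the 318 Z regions up to 500 bp, 51 were called toward Area X and 81 toward RA (16.04% and 25.5%, against 17.5% and 25.4%). Under signal-dependent scaling the wide regions gave 18 and 10, and the narrow ones turned to 67 and 47. Regions at or above the median CPM of all regions also turned. They gave 213 calls toward Area X and 125 toward RA under TMM (29.0% and 17.0%, against 36.9% and 19.6% of all such regions). The counts were 165 and 180 under signal-dependent scaling and 145 and 191 under total-count scaling. Over all regions of any width or level, calls were 10233 and 9083 under TMM, 9456 and 8109 under signal-dependent scaling, and 7045 and 12301 under total-count scaling. Class counts under the latter scalings are given for Z alone, so the turns are not shown to be particular to Z. Reads in regions over 4000 bp made up 15.6% ± 3.23 of Z reads in Area X and 12.3% ± 2.26 in RA (mean ± SD, n = 7 per nucleus; by exact two-sided permutation p = 0.049). That p rose to between 0.0548 and 0.0967 when any 1 of 10 libraries was left out (RA silent 1, 2 or 3, RA singing 1 or 2, Area X silent 2 or 3, or Area X singing 2, 3 or 4).

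Nearby regions differed together. Across neighbouring Z regions, log2 fold changes correlated with Pearson's r = 0.89 over 117 pairs up to 1000 bp apart and r = 0.72 over 334 pairs at 1000 to 10000 bp. Over 211 pairs more than 100000 bp apart r was 0.19. On the other placed chromosomes these values were 0.86, 0.70 and 0.23. All pairs share the same 14 libraries, and regions are not independent replicates.

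Area X was next set against RA inside each behaviour, where fewer libraries enter. In singing birds, 89 Z regions were higher in Area X (7.18%, against 10.4% of all regions) and 93 higher in RA (7.5%, against 8.09%). In silent birds, 83 were higher in Area X (6.69%, against 10.3%) and 95 higher in RA (7.66%, against 9.5%). Toward Area X, 32 regions were called in both behaviours, 36.0% of the singing and 38.6% of the silent list. Toward RA, 57 were called in both, 61.3% of the 93 singing and 57 of the 95 silent calls, and no region was called in opposite directions. Both lists come from a fit that shares its estimate of the spread, so they are not independent. Shared calls were not counted over all regions, so these percentages are not shown to be particular to Z. The 9 named regions of the 14.1 Mb cluster were called higher in RA in each behaviour, and so are among the 57. Its largest fold, at chrZ:14136487-14137869, was 6.75 in singing birds (edgeR adjusted p = 0.0203) and 15.2 in silent birds (edgeR adjusted p = 0.00315). No Z region passed the test of whether the nuclei differed more in 1 behaviour than in the other.

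These counts rested on single libraries, and so did those over all regions, which are given in brackets. In singing birds both were 0 without Area X singing library 3, without Area X singing library 4, and without RA singing library 3 (0 and 0 over all regions in each case). Without RA singing library 1 they were 13 toward Area X and 53 toward RA (428 and 1558 over all regions). Without RA singing library 2 they were 20 and 57 (981 and 1866), and without Area X singing library 2 they were 46 and 35 (1925 and 947). In silent birds both were 0 without Area X silent library 2 or 3, and with the silent groups alone in the fit (0 and 0 over all regions). They were 0 and 6 without RA silent library 1 (0 and 10 over all regions), and 0 and 2 without RA silent library 3 (0 and 3). Without RA silent library 2 they were 281 and 186 (8544 and 5977 over all regions). Libraries of the other behaviour, which enter through the shared spread, also moved them. Without Area X singing library 2 the silent counts were 21 and 63 (1663 and 1930 over all regions). Silent calls toward Area X numbered 136 without RA singing 1 (5068 over all regions) and 42 without RA singing 2 (2434). They numbered 26 without RA singing 3 (1660) and 21 without Area X singing 4 (1813). Singing calls toward Area X numbered 166 without RA silent 2 (5589 over all regions) and 56 without Area X silent 2 (2465). Of the libraries compared themselves, leaving out Area X silent 1 gave 164 silent calls toward Area X (5777 over all regions). Leaving out Area X singing 1 gave 138 singing calls toward Area X (4764 over all regions).

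Singing and silent birds were compared last. No Z region was called in RA, in Area X, across the nuclei together, or where the singing effects of the nuclei were set against each other (edgeR, every adjusted p on Z rounding to 1.00, with 0% of all regions called in each). DESeq2 also called 0 Z regions in each. At an unadjusted p under 0.05 there were 30 Z regions in RA (2.42%, against 1.96% of all regions) and 15 in Area X (1.21%, against 1.07%). Over both nuclei there were 39 (3.15%, against 2.6%), and for the difference of the singing effect 8 (0.645%, against 0.587%). The 95% interval of a singing difference on Z extended, in the median region, 0.94 log2 units to either side in RA and 0.90 in Area X. That width rests on the 3 and 4 libraries compared and on a spread estimated over all 14 libraries together. Smaller changes were not resolved in most regions.

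None of the following values passed; they belong to the Z regions with the smallest p. At chrZ:62188846-62189317 in RA, CPM was 1.41, 5.84, 7.38 and 17.4 in the singing libraries and 0.791, 0.663 and 0.803 in the silent libraries, with 3 to 26 reads in each RA library. The log2 fold change was 2.91 (95% interval 1.42 to 4.39, unadjusted p = 0.00065 in edgeR). All 4 singing libraries lay above the silent ones, and the highest was the shallowest library. At chrZ:7294171-7294576 in RA, CPM was 1.94, 21.7, 6.81 and 13.0 in the singing libraries and 0.791, 3.09 and 1.10 in the silent libraries, which overlap. At chrZ:41754312-41755341 in RA, CPM was 32.4, 26.7, 27.5 and 13.0 in the singing libraries and 46.0, 44.6 and 52.8 in the silent libraries (log2 fold change -0.84, 95% interval -1.41 to -0.26).

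In Area X, the smallest p was at chrZ:7304776-7305567, where CPM was 26.0, 27.5, 43.8 and 34.1 in the singing libraries and 13.4, 9.87 and 18.2 in the silent libraries. The groups did not overlap, and the log2 fold change was 1.24 (95% interval 0.47 to 2.01, unadjusted p = 0.00319 in edgeR). This region lies 10199 bp from chrZ:7294171-7294576. At chrZ:39110015-39112399 in Area X, CPM was 80.5, 98.1, 109 and 109 in the singing libraries and 63.0, 55.2 and 50.5 in the silent libraries (log2 fold change 0.82, 95% interval 0.27 to 1.36). It lies 7004 bp to the left of the strongest Z region. In RA the same region had 65.6, 106, 66.7 and 109 CPM in the singing libraries and 67.8, 54.1 and 58.0 CPM in the silent libraries, which overlap. The third, chrZ:752442-752713 in Area X, had 5.37, 5.63, 7.35 and 11.4 CPM in the singing libraries and 3.24, 2.29 and 1.67 CPM in the silent libraries. All 6 had an adjusted p that rounds to 1.00.

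The change from silent to singing birds leaned lower on Z than on the other chromosomes, by a small amount that did not pass a test. The median log2 fold change of Z regions, singing over silent, was -0.13 in RA and -0.03 in Area X, against -0.03 and 0.04 over the other placed regions. In each nucleus the Z median was the lowest of the 32 chromosomes ranked. Per library, the median of log2(CPM + 1) over Z regions minus that over the other placed regions was 0.21, 0.29, 0.05 and 0 in the RA singing libraries and 0.22, 0.35 and 0.31 in the RA silent libraries. The 0 was from RA singing library 4, the shallowest, where 1 read was 4.35 CPM and both medians tied. That value is limited by depth, and it lowers the RA singing mean. In Area X it was 0.24, 0.26, 0.34 and 0.18 in the singing libraries and 0.27, 0.38 and 0.35 in the silent libraries. Singing and silent libraries overlapped in both nuclei. The singing minus silent difference was -0.16 in RA and -0.08 in Area X (exact two-sided permutation p = 0.143 for each, where the smallest possible is 0.0286). Over both nuclei it was -0.12 (exact permutation p = 0.0335, adjusted p = 0.134 over 4 comparisons), which did not pass. This summary was added after the low median of Z had been seen. When any 1 of 7 libraries was left out (RA silent 2 or 3, RA singing 3 or 4, Area X silent 2 or 3, or Area X singing 4), p was between 0.05 and 0.0781. Without RA silent library 2 and RA singing library 4 together the difference was -0.08 (exact permutation p = 0.123). The share of reads on Z gave -0.24 percentage points in RA (exact permutation p = 0.171) and -0.05 in Area X (exact permutation p = 0.714), singing minus silent. Between the nuclei, the median Z level per library averaged 0.29 ± 0.07 in Area X and 0.21 ± 0.13 in RA (mean ± SD, n = 7 per nucleus). That difference of 0.08 was opposite in sign to the one in Z share and did not pass (exact permutation p = 0.182). The RA mean includes the 0 of RA singing library 4.

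**Figure D5:**
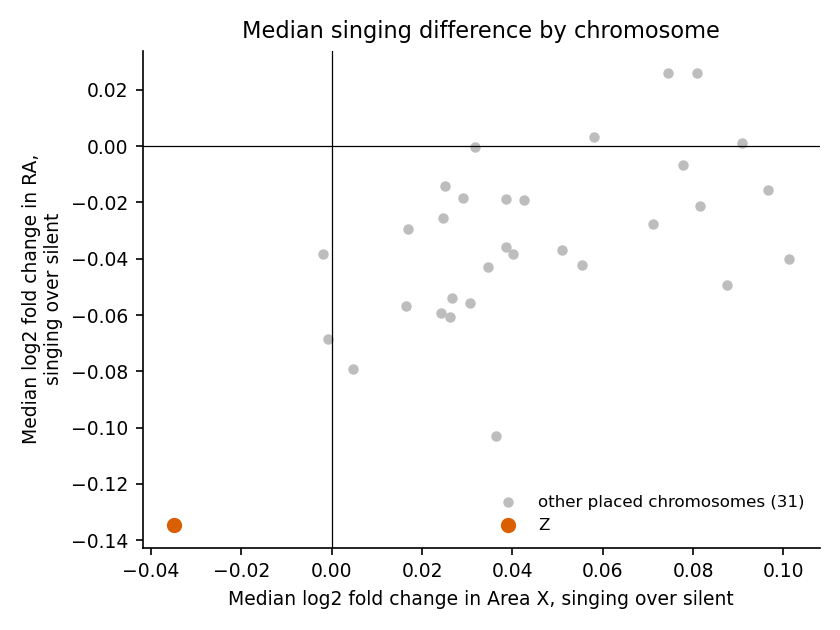
Median log2 fold change of singing over silent in Area X (x axis) and in RA (y axis) over the regions of each placed chromosome with at least 50 regions. Z, at -0.03 in Area X and -0.13 in RA, is the lowest on both axes. The error of these medians is not shown, and the test of the Z level by library did not pass.

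No segment of Z passed a test between singing and silent birds. Over the 8 segments in each nucleus the lowest exact permutation p was 0.229, at 50 to 60 Mb in Area X, with means of 17.4% ± 1.42 over 4 singing and 16.3% ± 0.70 over 3 silent libraries (SD), and each adjusted p was 0.914.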

How the data were processed

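Reads per H3K27ac region in 14 libraries were taken from the authors' deposited count table, with groups read from its column names (minus as silent, plus as singing). The tools listed, without roles, are HTSeq 0.6.1, MACS2 2.1, bedtools and SAMtools 1.1, per the submitters' processing notes; aligner and genome build: not given in the sources used here. Regions were those with Z in the chromosome column. The counts were tested with edgeR 4.0.16 (quasi-likelihood, TMM scaling, 4 groups, filterByExpr, R 4.3.3) over all 35954 regions that passed the filter, with Benjamini-Hochberg adjustment at 0.05. CPM was computed from the counts with TMM scaling. Shares were compared by exact two-sided permutation over libraries (Python 3.11.15, NumPy 2.4.6). Wilson intervals (SciPy 1.17.1) cover counting error only. The text names the 10 largest folds in each direction among called, non-overlapping regions at or above the median CPM, the 5 strongest, the 3 widest, the longest runs, and the 3 smallest p per behaviour contrast. Alternatives were other scalings, filters and tests, DESeq2 1.42.0 among them, and leaving out each library. Members and lists were chosen with earlier results of these data known.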

Additional observations from a re-analysis of the deposited data

Results flagged for a closer look

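In groups of 4 libraries, a library was singled out where its gap to the nearest other exceeded the critical share of the group's range in Dixon's test, which chance alone does in about 4.8 of the 96 groups tested. It picked out 2 values. At chrZ:14140832-14142519, in the cluster higher in RA, RA singing library 4 had 13.0 CPM and the other RA singing libraries 33.8 to 37.4 CPM, a ratio of 0.851. That library, the shallowest, had 3 reads there. For the share of Z reads at 30 to 40 Mb, RA singing library 3 had 24.97% and the other RA singing libraries 21.7%, a ratio of 0.983. That segment's difference between the nuclei kept its call without this library.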

How the results depend on the processing

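Of the named regions, the 20 with the largest folds, chosen as called and non-overlapping in these data, kept their calls in each of 23 alternatives. No alternative called a Z region between singing and silent birds. Calls toward Area X and toward RA on Z numbered 175 and 156 at an adjusted p under 0.01 (6286 and 4984 over all regions). With mean CPM at or above the median they numbered 153 and 184 (5178 and 4696 over all regions). The count toward Area X was 219 with total-count scaling (7045 over all regions). Leaving out 1 library gave 219 to 360 toward Area X and 204 to 305 toward RA.

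In silent birds the counts were 0 and 5 at an adjusted p under 0.01, against 0 and 8 over all regions. They were 43 and 160 with total-count scaling (1911 and 4815 over all regions). Without RA silent library 2 and RA singing library 4 they were 280 and 213 (8526 and 6857 over all regions). With the silent groups alone they were 0 and 0, also over all regions, and with DESeq2 134 and 173 (5278 and 5277 over all regions). The silent counts were 24 and 78 with DESeq2 size factors (1679 and 2401 over all regions). Of these calls 23.5% on Z and 41.2% over all regions were toward Area X. With mean CPM at or above the median they were 14 and 94 (1300 and 2617 over all regions), 13.0% and 33.2% toward Area X. Leaving out 1 library gave 0 to 281 toward Area X and 0 to 186 toward RA. In singing birds the counts were 0 and 0 at an adjusted p under 0.01, also over all regions. They were 41 and 173 with total-count scaling (1555 and 5579 over all regions), and 189 and 145 without those 2 RA libraries (6318 and 4913). The singing counts were 31 and 86 with mean CPM at or above the median (1458 and 2475 over all regions). With DESeq2 they were 130 and 147 (4987 and 4714 over all regions). Leaving out 1 library gave 0 to 166 toward Area X and 0 to 119 toward RA.

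The Area X minus RA difference in Z share was -0.189 percentage points without regions over 4000 bp (exact permutation p = 0.164) and -0.279 without the 2 RA libraries (exact permutation p = 0.0505), and -0.346 to -0.226 leaving out 1 library. The singing minus silent difference in Area X turned to 0.0018 without Area X silent library 2 and to 0.0249 without Area X singing library 4, in a range of -0.0975 to 0.0249. The Z median level over both nuclei differed by -0.144 to -0.0966 leaving out 1 library and by -0.0822 without the 2 RA libraries. Reads in regions over 4000 bp differed by 2.66 to 4.13 percentage points leaving out 1 library. Of 5 Mb segments 7 passed, against 4 of 10 Mb, and 3 to 4 leaving out 1 library. The 70 to 73 Mb difference turned to -0.0222 without Area X silent library 1 and -0.0241 without Area X singing library 1 (range to 0.0816), and the 10 to 20 Mb difference to 0.0531 without the 2 RA libraries. At chrZ:29818214-29820621 signal-dependent scaling gave -0.11. The causes of these changes were not tested.

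Correlations of same-numbered deviations from the group means ran from -0.31 to 0.72. They were 0.51 to 0.72 for the libraries numbered 1, in each of 6 pairs of groups, but not above 0.1 for all numbers of any 2 groups, and no label says that a number marks a shared pool or day, so the numbers were not taken to pair the samples. With the number as a replicate block, the silent counts were 285 toward Area X and 212 toward RA (8761 and 6482 over all regions). The singing counts were 210 and 121 (6809 and 3876 over all regions). The Z share difference over same-numbered pairs was -0.27 for Area X minus RA (p = 0.0625, by exact flipping of the signs of the pair differences). For singing minus silent in Area X it was 0.0249. Depth limits RA singing library 4, with 7435 reads on Z.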
